A study of Homo sapiens with 6 samples.

Results

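The UGT2B genes encode enzymes of the endoplasmic reticulum that attach glucuronic acid to steroids and other small molecules, and 7 of them (UGT2B4, UGT2B7, UGT2B10, UGT2B11, UGT2B15, UGT2B17 and UGT2B28) were looked up on arrays of LNCaP prostate cancer cells with and without an androgen. Every probe set that the platform annotation assigns to any of these genes was taken, which gave 6 of the 54675 probe sets on the array. UGT2B15 had 3 probe sets, and UGT2B17, UGT2B28 and UGT2B4 had 1 each. UGT2B7, UGT2B10 and UGT2B11 were matched by 0 probe sets and were not analysed here. None of the 6 names several genes, but 3 of them end in _x_at, the suffix of the manufacturer for probe sets whose probes can also match other transcripts.

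LNCaP is an established, androgen-responsive human line that came from a lymph node metastasis of prostate cancer. Both groups spent 3 days in RPMI without phenol red, whose 10% serum had been depleted of steroids with charcoal and dextran. Dihydrotestosterone (DHT), the androgen that binds the androgen receptor most tightly, was then given at 100 nM for 48 h to 3 cultures, and another 3 cultures were the controls, for which the sources name no vehicle. The labels call the cultures of a group biological replicates without saying whether they were grown on separate days, so p-values measure the spread between these cultures, which may be technical, and their small number limits the precision.

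Glucuronidation is the step that ends the life of an androgen in a target cell. A UGT2B enzyme transfers glucuronic acid from the cofactor UDP-glucuronic acid to a hydroxyl group of testosterone, DHT or their reduced metabolites, and the product no longer binds the androgen receptor and leaves the cell through efflux pumps. UGT2B15 and UGT2B17 are the main enzymes of this kind in the prostate and UGT2B28 also conjugates androgens, while UGT2B4 and UGT2B7 are known mainly from the liver. The genes lie next to each other on chromosome 4, arose by duplication and remain close in sequence, most of all UGT2B15 and UGT2B17, so that an array probe for one can bind RNA of another. Androgens are known to repress UGT2B15 and UGT2B17 in LNCaP cells.

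The stretch before the start of UGT2B15, the member with the most probe sets, is shown because its RNA signal changed with DHT. It is given from RefSeq (GRCh38.p14, minus strand, chr4:68670653-68670902) as the 250 bases that end just before the annotated transcription start, 5′ to 3′, with matches to 2 motifs in capitals.
UGT2B15: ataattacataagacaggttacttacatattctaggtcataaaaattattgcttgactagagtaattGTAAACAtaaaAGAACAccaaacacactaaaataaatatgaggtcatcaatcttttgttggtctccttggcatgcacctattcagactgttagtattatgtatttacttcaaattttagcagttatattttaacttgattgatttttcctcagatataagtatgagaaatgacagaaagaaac
The first capitals are the FOXA letters GTAAACA at positions -183 to -177 from the start, and the second are the androgen receptor half-site letters AGAACA at -172 to -167. On either strand, GTAAACA occurred in 2.98% and AGAACA in 12.4% of 35116 promoter windows of the same length. The full androgen response element (AGAACA, 3 bases of any kind and TGTTCT), which contains the half-site on both strands, and the HNF1 half-site GTTAAT had no match in this window, against 0.00285% and 6.23% of all windows. The same RefSeq table held windows of 3 other members, UGT2B7, UGT2B10 and UGT2B11, which had no match to any of these 4 motifs. In a global alignment the UGT2B15 window was 61.3% identical to that of UGT2B7, 70.6% to UGT2B10 and 71.4% to UGT2B11, while UGT2B10 and UGT2B11 were 90.2% identical to each other. A match is a description of letters and shows no binding.

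The deposited values are MAS5 signals, a linear intensity for each probe set after background subtraction, with every array scaled by the authors to the same trimmed mean of 100.03. Median signals of the arrays ran from 25.7 to 30.0. Because probes differ in how well they bind, the signals of different probe sets are not amounts of RNA. Comparisons are made between arrays, for the same probe set or for the same sum or ratio of probe sets. A sum is set mostly by its brightest probe sets and does not show that all its genes moved. For the control probe sets of ACTB, the 3' signal divided by the 5' signal, a measure of RNA integrity and labelling, was 1.37 ± 0.05 without and 1.77 ± 0.07 with DHT (SD, n = 3 each; two-sided exact permutation p = 0.1, the smallest that 3 against 3 arrays can give). For GAPDH it was 0.904 ± 0.044 and 1.06 ± 0.05 (exact permutation p = 0.1). The part of this shift in the results on UGT2B genes was not tested.

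Of the lists of cell markers, 8 of 10 luminal prostate markers had a single-gene probe set and all 8 were bright enough to test. Their summed signal was 8975 to 9104 in the controls and 20143 to 20839 with DHT. Of the 8, 4 rose in limma, beside 5.08% of all tested probe sets. KLK3 went from 2186 ± 261 to 8985 ± 441, KLK2 from 109 ± 9.97 to 2082 ± 124, TMPRSS2 from 304 ± 20.4 to 2064 ± 166 and ACP3 from 1324 ± 200 to 2106 ± 248 (SD, n = 3 each). The other 2 tested probe sets of KLK2 had 0.28 and 3.27, of which 1 passed as higher. ACP3 did not pass without an intensity trend (limma adjusted p = 0.0562) or with the arrays scaled to the hybridisation spikes. Another 2 fell, beside 5.27% of all tested probe sets. HOXB13 went from 1556 ± 102 to 1203 ± 142 (limma adjusted p = 0.0243, up to 0.141 under other settings) and KRT8 from 595 ± 13.6 to 437 ± 37.7 (limma adjusted p = 0.00652, but 0.0722 without an intensity trend). The other probe set of HOXB13 had -0.24 and did not pass. FOLH1 and KRT18 did not pass. Hepatocyte markers were looked at because the liver is the main site of UGT2B expression. They had a summed signal of 204 to 240 over 10 genes in the controls and 270 to 285 with DHT, with ALB, APOA1, FGB and AHSG below the limit for testing. Of the 6 tested, 1 passed, beside 10.3% of all tested probe sets. This was TF, which went from 10.5 ± 5.0 to 32.9 ± 7.1 (limma adjusted p = 0.0342), but did not pass in 9 of the alternatives, with an adjusted p of up to 0.123. TTR had 33.4 ± 15.7 and 63.3 ± 17.3 (limma adjusted p = 0.104) and SERPINA1, in the other direction, 47.5 ± 1.3 and 37.4 ± 3.6 (limma adjusted p = 0.401). The ranges of the summed signal do not overlap, and their part in the UGT2B results was not tested. Summed signals were 29.3 to 53.4 and 33.7 to 64.8 for 4 basal prostate markers, 489 to 561 and 467 to 517 for 6 stromal markers, and 76.1 to 119 and 55.9 to 109 for 4 leukocyte markers. Of the 5 stromal markers tested, 0 rose and 1 fell. It was COL1A1, from 198 ± 22.7 to 132 ± 20.7 (log2 difference -0.54 ± 0.13; limma adjusted p = 0.0215). COL1A1 missed the threshold in 5 of the alternatives, at an adjusted p of up to 0.0877. Its 2 further tested probe sets were lower by less, at -0.34 and -0.30, and neither met the threshold. In RNA of whole cultures, fewer cells of a kind and less RNA per cell cannot be told apart.

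The comparison of DHT with control asked how far the RNA of each enzyme moved when androgen was returned. The 3 probe sets of androgen-conjugating enzymes with an _x_at suffix (for UGT2B15 and UGT2B28) and the UGT2B17 probe set without it were all lower with DHT, by 25.9% to 45.8% of the control signal. The last UGT2B15 probe set and that of UGT2B4 were dim on nearly every array and show no separation of the groups.

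UGT2B15, which conjugates DHT and its 3α-reduced metabolite, gave the brightest signal in probe set 207392_x_at. The control arrays read 1163, 1220 and 1421, and the DHT arrays 769, 853 and 760. The highest DHT array lay 310.2 below the lowest control array, so the groups did not overlap. On log2(signal + 16), the scale of the limma tests, the difference of DHT minus control was -0.66 ± 0.09 (SE; 95% confidence interval -0.85 to -0.47; limma adjusted p = 0.000819, adjusted by Benjamini-Hochberg over all tested probe sets).

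Probe set 216687_x_at, also assigned to UGT2B15, read 449, 465 and 526 in the controls and 228, 256 and 296 with DHT. Again all 3 DHT arrays lay below all 3 controls, and the mean with DHT was 54.2% of the control mean. Its log2 difference was the lowest of the UGT2B probe sets tested, at -0.85 ± 0.10 (95% interval -1.08 to -0.62; limma adjusted p = 0.000532), and 279 of the 32768 tested probe sets of the array (0.851%) had a lower one.

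Probe set 217175_at, the only one of UGT2B15 without the _x_at suffix, lists the same source sequence record in the annotation as 216687_x_at, yet was dim. The control arrays read 8.62, 17.6 and 10.3, and the DHT arrays 4.09, 4.89 and 31.4. The DHT values lie on both sides of the controls, and their SD of 15.5 exceeds their mean of 13.5. The limit for testing left out the dimmest 40% of probe sets, ranked by their mean log2 signal, at a signal of 16.1, and this one fell under it. When no limit was set, it had a log2 difference of -0.04 ± 0.33 (SE; limma adjusted p = 0.973). The 3 probe sets of UGT2B15 therefore did not read alike: the 2 bright ones carry the suffix for probes that can match other transcripts, and for the dim probe set without it a change was not detectable.

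UGT2B17, which conjugates testosterone, DHT and androsterone, had a single probe set, 207245_at, without the suffix for shared probes. It read 619, 668 and 713 in the controls and 470 (replicate 1), 543 and 470 (replicate 3) with DHT. The groups did not overlap, with 75.9 between the lowest control and the highest DHT array. The mean with DHT was 74.1% of the control mean, a log2 difference of -0.42 ± 0.09 (95% interval -0.61 to -0.23; limma adjusted p = 0.0104), which was the difference nearest to 0 among the UGT2B probe sets tested. Without an intensity trend in limma's variance it did not pass (adjusted p = 0.0913), and over the alternatives its adjusted p ran from 6.33e-05 to 0.0913.

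UGT2B28, an enzyme of narrower activity toward androgens and their metabolites, was read by 211682_x_at at 172, 142 and 191 in the controls and 104, 100.0 and 84.3 with DHT. All DHT arrays were below the controls by at least 38.0. The log2 difference was -0.71 ± 0.13 (95% interval -1.004 to -0.42; limma adjusted p = 0.00613), with the widest interval of the UGT2B probe sets tested and the lowest signal.

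UGT2B4, a hepatic enzyme known for conjugating bile acids, was at the bottom of the signal range. Its probe set 206505_at read 8.17, 2.78 and 1.22 in the controls and 5.08, 2.11 and 12.2 with DHT, below the limit of 16.1 on every array. The groups overlap, and with no limit set the log2 difference was 0.15 ± 0.19 (limma adjusted p = 0.773). At such signals MAS5 values are unreliable, and detection calls were not used here, so whether LNCaP cells hold UGT2B4 RNA cannot be read from these values.

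**Figure D1:**
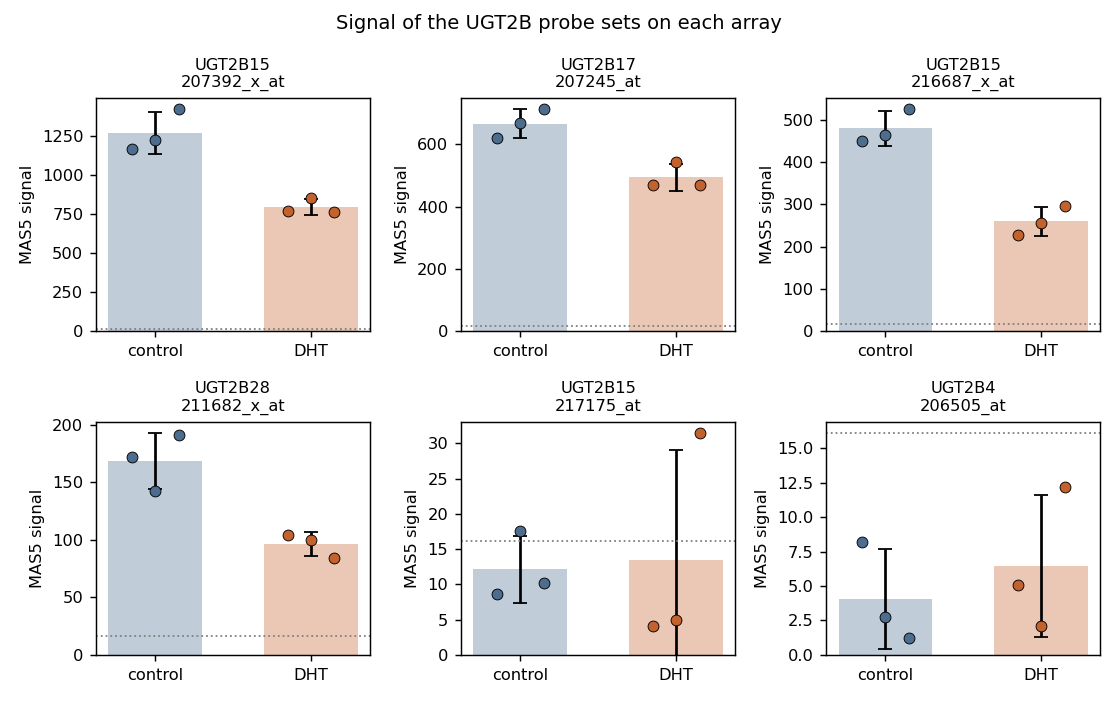
MAS5 signal (linear, vertical axes from 0, a different range in each panel) of the 6 UGT2B probe sets in control and DHT cultures; points are arrays, bars means, error bars SD over 3 arrays (cut at 0), and the dotted line is the limit of 16.1 for testing. In the panels of 207392_x_at, 207245_at, 216687_x_at and 211682_x_at all DHT points lie below all control points, while those of 217175_at and 206505_at overlap.

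Across the array, 10.3% of the 32768 tested probe sets passed an adjusted p of 0.05, and 5.27% passed as lower with DHT. Of the UGT2B probe sets, 4 were tested and all of these passed as lower, with a median log2 difference of -0.69 beside 0.01 over all tested probe sets. Their mean signals lay at percentiles 78.5 to 97.3 of the array, and brighter probe sets passed more often. When the dimmest 60% were left out, 8.90% of the tested probe sets passed as lower. All 3 DHT arrays lay below all 3 control arrays for these 4 and for 13.7% of all tested probe sets. The 4 are not independent observations, since they can share RNA, and they came from the same 6 cultures.

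The size of these differences is set against the mean signal of each array, and the 4 stayed lower under each scaling tried. The hybridisation spikes, bacterial and phage RNAs that are meant to be equal on every array, were 0.55 higher with DHT on the log2 scale (exact permutation p = 0.1), and scaling the arrays to them shifted the median difference of all tested probe sets to -0.43. With this scaling the UGT2B differences were -1.20 for 207392_x_at, -1.38 for 216687_x_at, -0.96 for UGT2B17 and -1.20 for UGT2B28, which relative to that shift are -0.77, -0.94, -0.53 and -0.77. The share of calls that were higher was 49.1% with the deposited scaling, 36.9% with equal array medians and 1.59% with the spikes.

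**Figure D2:**
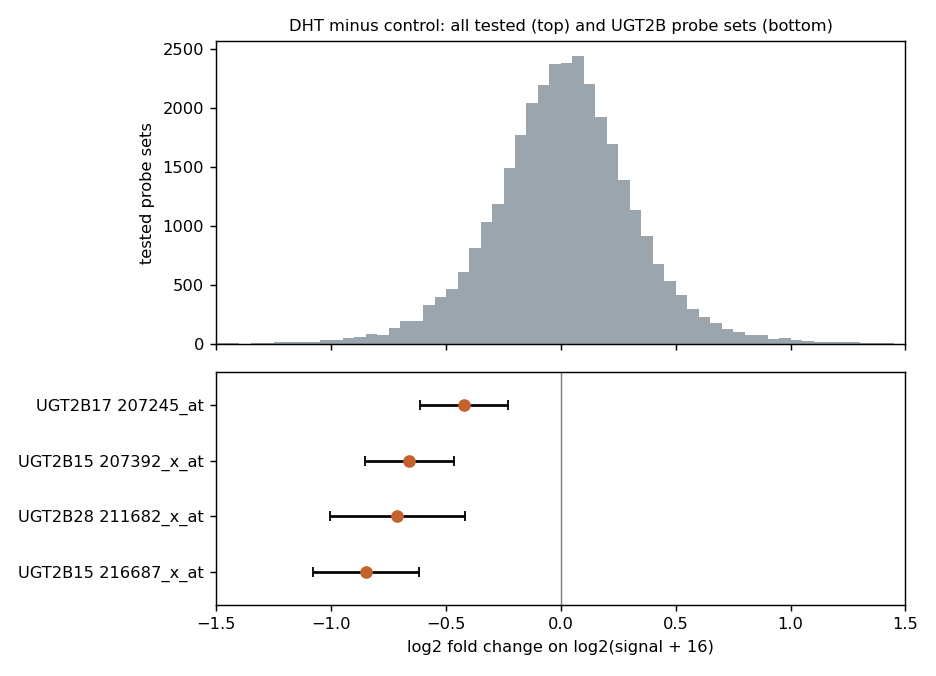
Top, histogram of the log2 difference of DHT minus control over the tested probe sets (the range from -1.5 to 1.5 is drawn); bottom, the same difference for the 4 tested UGT2B probe sets with 95% confidence intervals from limma. The points run from -0.85 for 216687_x_at to -0.42 for UGT2B17, and all 4 intervals lie below 0.

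Whether the probe sets report the same response was read from the ratio of their signals on each array, since sharing of RNA between UGT2B15, UGT2B17 and UGT2B28 probes would pull their values together. There were 6 pairs among the 4 tested probe sets, and 3 against 3 arrays cannot give a two-sided exact p below 0.1, so no pair could pass a threshold of 0.05. The ratio of UGT2B15 (207392_x_at) to UGT2B17 was 1.88, 1.83 and 1.99 in the controls and 1.64, 1.57 and 1.62 with DHT. The groups did not overlap, and the log2 ratio differed by -0.24 ± 0.04 (SE; exact permutation p = 0.1, 0.3 after adjustment over the 6 pairs). Because the test could not pass with so few arrays, it cannot decide whether these probe sets differ in response.

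The ratio of UGT2B17 to the second UGT2B15 probe set, 216687_x_at, was 1.38, 1.44 and 1.36 in the controls and 2.06, 2.12 and 1.59 with DHT, again without overlap, a log2 difference of 0.43 ± 0.13 (exact permutation p = 0.1, adjusted 0.3). DHT replicate 3 lay nearest to the controls, and without it the difference was 0.55. For this pair too, the test could not pass and cannot decide whether the responses differ.

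The 2 bright UGT2B15 probe sets kept a ratio of 2.59 to 2.70 over the controls and spread to 3.37, 3.33 and 2.57 with DHT. The DHT values lay above the control range on replicates 1 and 2 and below it on replicate 3, where 216687_x_at read highest of its group. The log2 difference was 0.19 ± 0.12 (exact permutation p = 0.4, adjusted 0.6), 0.31 without DHT replicate 3, 0.12 without DHT replicate 1, 0.13 without DHT replicate 2 and 0.12 with a pseudocount of 64, so a different response of these probe sets for the same gene was not shown.

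Against UGT2B28 the ratios overlapped between the groups in every pair. The ratio of 207392_x_at to the UGT2B28 probe set was 6.78, 8.58 and 7.43 in the controls and 7.38, 8.53 and 9.01 with DHT (log2 difference 0.05 ± 0.12; exact permutation p = 0.8). That of UGT2B17 to UGT2B28 was 3.61, 4.69 and 3.73, then 4.50, 5.43 and 5.57 (0.29 ± 0.14; exact permutation p = 0.2, adjusted 0.4). That of 216687_x_at to UGT2B28 was 2.62, 3.27 and 2.75, then 2.19, 2.56 and 3.51 (-0.14 ± 0.20; exact permutation p = 0.5, adjusted 0.6). The sign of the differences between the UGT2B15 probe sets and UGT2B28 changed under other settings, so their order is not resolved.

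**Figure D3:**
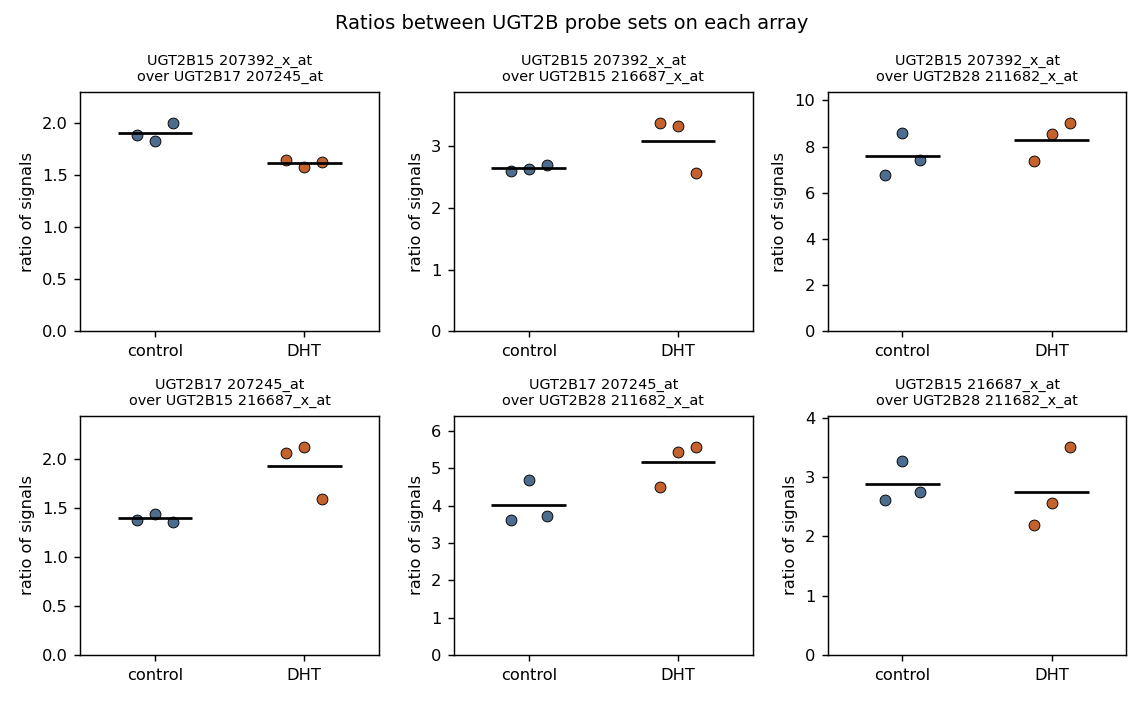
Ratio of the MAS5 signals of 2 UGT2B probe sets on the same array, in control and DHT cultures, for the 6 pairs of tested probe sets; points are arrays and lines means of 3, with axes from 0. The groups are apart for 207392_x_at over 207245_at and for 207245_at over 216687_x_at and overlap in the other 4 panels.

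The other genes of the pathway were taken from lists written from general knowledge, each gene read from its brightest tested probe set that names it alone, where probe sets ending in _x_at served only if no other was tested. Beside each count stand the shares over the whole array, where 5.08% of the tested probe sets passed as higher and 5.27% as lower. Among other UGT genes, 5 of 12 had such a probe set, 3 were bright enough to test and 0 passed in limma, and 1 (UGT8) had an unadjusted p under 0.05. The 2 brightest were UGT8, which makes galactosylceramide (17.8 ± 6.0 in the controls and 32.4 ± 8.9 with DHT; log2 difference 0.52 ± 0.23, limma adjusted p = 0.193), and UGT3A1 (23.5 ± 5.5 and 17.8 ± 9.0; -0.25 ± 0.26). Most UGT1A genes share their last exons and are named together. Probe set 208596_s_at, which names 9 of them, went from 21.7 ± 3.2 to 47.1 ± 11.9 (0.73 ± 0.20; limma adjusted p = 0.0421), but it did not pass in 12 of the 16 alternatives (adjusted p up to 0.177), and the other 4 tested UGT1A probe sets that name several genes did not pass. The signals of all 16 probe sets of other UGT genes stayed at group means of at most 68.7.

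For the supply of the cofactor UDP-glucuronic acid and the hydrolysis of glucuronides, 9 of 11 genes were tested, of which 2 fell, 0 rose and 7 did not pass in limma (5.27% of all tested probe sets fell and 5.08% rose), with a median of -0.12 (1 higher and 3 lower at an unadjusted p under 0.05). The count that fell was 0 without the intensity trend, without DHT replicate 2 and without DHT replicate 3, 1 with equal array medians or without control replicate 1, control replicate 2 or DHT replicate 1, and 8 with spike scaling. UXS1, which turns UDP-glucuronic acid into UDP-xylose, fell from 206 ± 17.0 to 146 ± 12.9 (-0.45 ± 0.11; limma adjusted p = 0.0210), while its other probe set had 0.01. SLC35D2, a Golgi carrier of nucleotide sugars, fell from 239 ± 34.6 to 169 ± 0.41 (-0.45 ± 0.11; adjusted p = 0.0234). Its other 2 tested probe sets had -0.55 and 0.06, of which 1 passed as lower. In the probe sets used, neither gene passed under all alternatives, with adjusted p up to 0.0823 for UXS1 and up to 0.0937 for SLC35D2. UGDH, which makes the cofactor itself, had 349 ± 25.2 and 290.0 ± 19.7 (-0.25 ± 0.09; adjusted p = 0.110), and GUSB, the lysosomal enzyme that removes glucuronic acid, had 0.15 ± 0.08 (adjusted p = 0.282).

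Of 31 other enzymes that make or break down androgens, 19 were tested, 3 rose, 0 fell and 16 did not pass in limma (5.08% of all tested probe sets rose and 5.27% fell), with a median of 0.03 (3 higher and 0 lower at an unadjusted p under 0.05). These counts rest on 1 probe set for each gene, and with spike scaling 0 rose and 5 fell. HSD17B4, which oxidises steroids and fatty acids in peroxisomes, rose from 1241 ± 29.2 to 1789 ± 92.2 (0.52 ± 0.07; limma adjusted p = 0.000846). The retinal reductase RDH11 rose from 3918 ± 344 to 5312 ± 109.6 (0.44 ± 0.08) and steroid sulfatase STS, which frees conjugated steroids, from 82.3 ± 3.3 to 126 ± 7.6 (0.53 ± 0.12). The other 3 probe sets of RDH11 had 0.03 to 0.30 and the other 2 of STS 0.11 to 0.30, and none of these passed. RDH11 did not pass without the intensity trend (limma adjusted p = 0.0712), nor STS with equal array medians or without DHT replicate 2. With spike scaling HSD17B4 (-0.02) and RDH11 (-0.11) had the opposite sign, STS had 0.05, and none of these passed. SULT1A1 had -0.04 in its brightest probe set without the _x_at suffix, and -0.47 to -0.37 in its other 2, which passed. SRD5A1, which reduces testosterone to DHT, had 231 ± 6.58 and 211 ± 11.2 in the probe set used (-0.12 ± 0.09; limma adjusted p = 0.458), and -0.60 and -0.27 in its other 2, of which 1 passed as lower.

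Transcription factors that are reported to act on UGT2B genes had 26 entries, where PREP1 is an older name of PKNOX1. Of these 15 were tested, 1 rose, 1 fell and 13 did not pass in limma, beside 5.08% that rose and 5.27% that fell over the array, with a median of -0.05. With spike scaling 0 rose and 11 fell. PBX2, a homeobox partner protein, fell from 267 ± 32.8 to 109 ± 35.7 (-1.21 ± 0.17; limma adjusted p = 0.00128), with -0.71 to 0.37 over its other 3 probe sets, of which 1 passed in the same direction. MYC rose from 1161 ± 51.7 to 1796 ± 377 (0.60 ± 0.12; adjusted p = 0.00841), and had 0.06 with spike scaling, which did not pass, and did not pass without the intensity trend (limma adjusted p = 0.0842). FOXA1, a pioneer factor of androgen receptor binding, had 1112 ± 16.6 and 1073 ± 72.7 (-0.05 ± 0.07; adjusted p = 0.732).

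Among pumps that carry steroid conjugates out of cells, 6 of 9 were tested, 2 rose, 0 fell and 4 did not pass in limma (5.08% of all tested probe sets rose), with a median of 0.24 (2 higher and 0 lower at an unadjusted p under 0.05). The count that rose was 1 with equal array medians, 0 without the intensity trend and 0 with spike scaling, where 2 fell. ABCC4 rose from 337 ± 69.7 to 583 ± 63.5 (0.78 ± 0.14; limma adjusted p = 0.00461), and its other 2 probe sets passed at 0.62 and 0.77. ABCC1 rose from 445 ± 10.7 to 596 ± 41.0 (0.41 ± 0.08; adjusted p = 0.00724), while its other probe set had -0.11. With spike scaling ABCC4 had 0.25 and ABCC1, of opposite sign, -0.13, and neither passed. Without the intensity trend the limma adjusted p was 0.0584 for ABCC4 and 0.0762 for ABCC1, and ABCC1 did not pass with equal array medians. ABCC2 and ABCC3, known as hepatic pumps of glucuronides, were below the limit for testing, at signals of 2.08 ± 0.75 and 5.33 ± 1.39 in the controls.

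**Figure D4:**
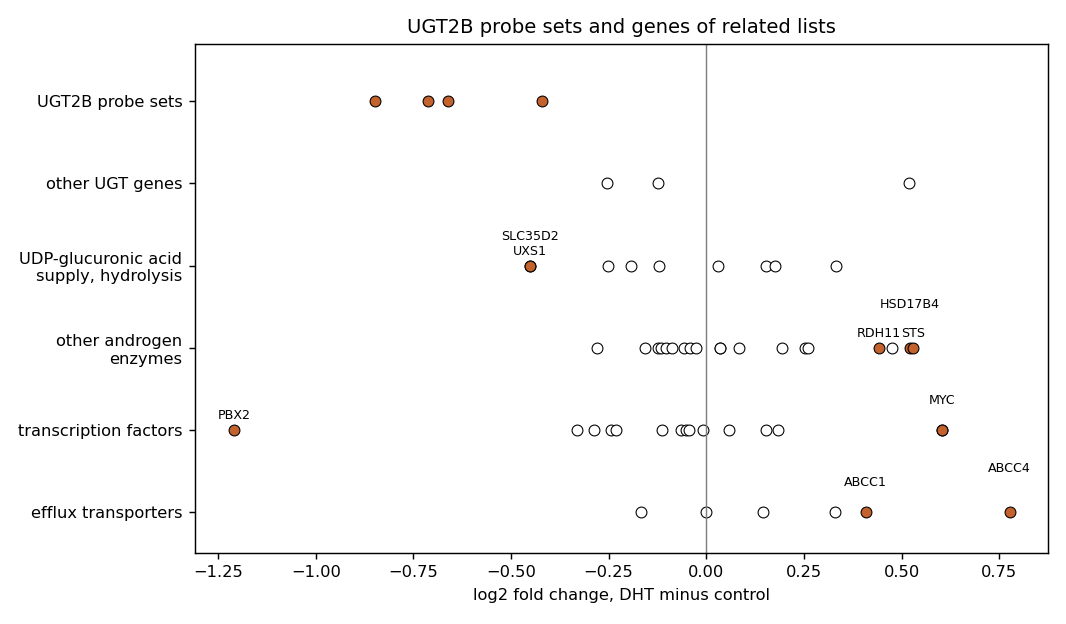
Log2 difference of DHT minus control for the 4 tested UGT2B probe sets and for the tested genes of 5 related lists, 1 point per probe set or gene; filled points passed a limma adjusted p of 0.05 and are named in the lists. The UGT2B points lie between -0.85 and -0.42, UXS1 and SLC35D2 coincide at -0.45, and the filled points of the androgen enzymes and the efflux pumps lie above 0 with the deposited scaling.

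The genes whose profile over the 6 arrays was nearest to that of the UGT2B probe sets were found by the root mean square difference from the mean profile of the 4 tested probe sets, after each was centred on its own mean. The candidates were 24359 tested single-gene probe sets that do not end in _x_at and are not of UGT genes. HAPSTR1, the adaptor GRB10, RPRD2, SZRD1 and ZNF654 were nearest, at 0.04, 0.04, 0.05, 0.05 and 0.05 on the log2 scale, beside a median of 0.39 over the candidates. GRB10 went from 1184 ± 71.2 to 738 ± 53.7 and HAPSTR1 from 364 ± 44.4 to 225 ± 8.6. The UGT2B probe sets themselves lay at 0.03 for 207392_x_at, 0.13 for UGT2B17, 0.14 for 216687_x_at and 0.11 for UGT2B28, and are part of the profile they are compared with. Likeness over 6 arrays of 2 groups includes the size of the group difference, and it is a description.

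**Figure D5:**
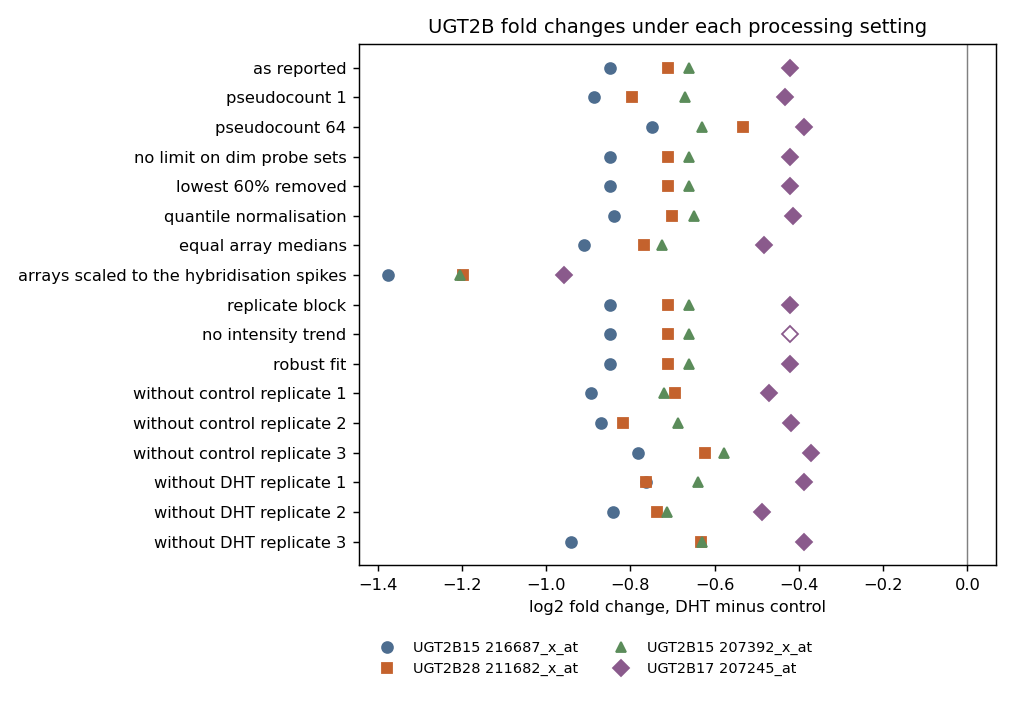
Log2 difference of DHT minus control for the 4 tested UGT2B probe sets as reported and under 16 other settings of processing or with 1 array left out; filled symbols passed a limma adjusted p of 0.05. All symbols lie below 0, those with spike scaling farthest (-1.38 to -0.96), and UGT2B17 without the intensity trend is the open one.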

How the data were processed

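Per the labels' protocols, biotin-labelled RNA of 6 LNCaP cultures was hybridised to Affymetrix arrays of 1 colour. The deposited values are linear intensities from MAS5 (no version stated), per the submitters' processing notes. Each array had a trimmed mean (2% at both ends) of 100.03, so the authors had scaled them already. Groups come from the sample titles, and 0 columns were left unused. The 62 array controls and the dimmest 40% of the rest, ranked by mean log2 signal, were left out, leaving 32768. Tests used limma (3.58.1, R 4.3.3; lmFit, eBayes with an intensity trend) on log2(signal + 16), a scale that understates changes of dim genes, with Benjamini-Hochberg adjustment over all tested probe sets at 0.05. The fit was tested on simulated data. Ratios were compared by exact permutation (scipy 1.17.1). In the platform annotation 41097 probe sets name 1 gene and 1801 several. The gene identifiers of 41043 single-gene probe sets matched a gene table of GRCh38.p14, and promoter windows came from RefSeq. The alternatives were other pseudocounts (1 and 64), limits on dim probe sets (0% and 60%), scalings, limma options, the replicate block and leaving out each array. Every UGT2B probe set is named, as are list genes that passed (or the 2 brightest of a pathway list where none passed) and the 5 nearest profiles. UGDH, GUSB, SULT1A1, FOXA1, SRD5A1, ABCC2, ABCC3 and the luminal and hepatocyte markers were chosen after their values were seen. The members and lists were chosen with earlier results of these data known.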

Additional observations from a re-analysis of the deposited data

How the results depend on the processing

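The count of UGT2B probe sets that passed as lower was 4 under 15 of the 16 alternatives, the runs that left out 1 array included, and 3 without the intensity trend, where UGT2B17 had -0.42 (limma adjusted p = 0.0913). With 1 array left out, UGT2B17 ran from -0.49 to -0.37 with an adjusted p of up to 0.0494, and UGT2B28 from -0.82 to -0.62. Over the whole array 3390 probe sets passed, against 15463 with spike scaling, 1303 without the intensity trend and 2059 to 2653 with 1 array left out (2059 without control replicate 3, 2139 without DHT replicate 3). With the replicate number as a block 3107 passed and the same 4 UGT2B probe sets did. The numbers were not taken as pairing the cultures, since the deviations of same-numbered arrays correlated at -0.031 to -0.0019 across probe sets. The difference in response of 207392_x_at against UGT2B28 (0.05) was -0.10 with a pseudocount of 64 and ran from -0.025 to 0.13 with 1 array left out, negative without control replicate 1 (-0.025). That of 216687_x_at against UGT2B28 (-0.14) ran from -0.31 to 0.00081, changing sign without DHT replicate 1. The cause of these changes was not tested. The other differences between probe sets kept their sign under the alternatives run, as did the 3' to 5' ratios of ACTB (log2 difference 0.35 to 0.41) and GAPDH (0.19 to 0.27). Signals near or under 16.1 limit what can be said of UGT2B4 and 217175_at.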

Other observations

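The genes that flank the UGT2B cluster on chromosome 4 were looked at after the results were known, in the gene order of GRCh38.p14, since the annotation of the arrays names no build. On the side of UGT2B17, the nearest tested genes were TMPRSS11E, a membrane protease (control signal 21.9 ± 3.5, DHT signal 24.9 ± 5.0; SD, n = 3 each), and YTHDC1, a reader of methylated adenosine in RNA (792 ± 58.9 and 840 ± 62.4). YTHDC1 had a log2 difference of 0.08 ± 0.08 and TMPRSS11E of 0.11 ± 0.21 (limma adjusted p = 0.611 and 0.818). On the other side, beyond UGT2B4, SULT1B1, a sulfotransferase of thyroid hormones and phenols, had 52.7 ± 14.8 and 56.0 ± 14.3 (0.07 ± 0.21; limma adjusted p = 0.891), and the estrogen sulfotransferase SULT1E1 was below the limit for testing at 5.07 ± 3.42 and 11.8 ± 6.5. Within the cluster the probe set of UGT2A3 was at 2.91 ± 2.55 and 3.04 ± 4.12. Whether the flanking genes respond differently from the UGT2B genes was not tested.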
